A study of Pseudopodoces humilis with 2 samples.

Results

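The genes described here are those of the ground tit (Pseudopodoces humilis), a songbird of the Tibetan plateau, that stood at least 16-fold higher in liver than in muscle. They were chosen by RPKM (read number divided by gene length and by the size of the library) as log2(liver RPKM + 1) minus log2(muscle RPKM + 1) of 4 or more. This was met by 106 of 15394 listed genes, or 0.689%. The level in each tissue and their difference chose the genes, so both are given as a description and were not tested. The study sequenced RNA of 1 liver sample and 1 muscle sample for use in gene annotation, and there were no replicates of a tissue. The labels name the tissue of each sample and give no age, sex, strain, treatment or number of birds. The muscle column behaved as an average over 2 libraries. Whole reads recovered from these values gave totals of 46313678 reads for liver, 47542891 for the smaller muscle library and 86472618 for the larger one.

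The vertebrate liver makes most of the proteins that circulate in blood plasma, among them carriers, clotting factors and lipoproteins. It also stores and releases sugar and lipid, forms bile and clears nitrogen, and in laying birds it makes the yolk precursors. Muscle is built mainly of contractile fibres. Genes of some secreted families lie side by side on a chromosome. The files used here pair no gene ID with a gene name, so what each of the 106 genes encodes is not reported, and the tissues were not checked against marker genes. Only 2 IDs are given in full, and other genes are given by their rank, or by their scaffold (a contiguous assembled piece of the genome) and their number on it.

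The 106 genes were abundant in liver and far lower in muscle, as the rule requires. Their median level was 100.6 RPKM in liver, with a middle range (lower to upper quartile) of 44.4 to 274 RPKM, and 0.949 RPKM in muscle, with a middle range of 0.354 to 3.52 RPKM. Over all listed genes the median was 0.302 RPKM in liver and 0.727 RPKM in muscle, so in muscle the median of the 106 genes lay close to that of all genes. In whole tissue, fewer cells of a type and less RNA per cell cannot be told apart. In liver the lowest of the 106 stood at 19.1 RPKM and 53 stood at 100 RPKM or more. In muscle 51 of the 106 reached 1 RPKM, as did 44.3% of all listed genes. The other 55 were under 1 RPKM, and 7 of the 106 reached 10 RPKM. All 106 had recovered reads in both muscle libraries, the fewest being 8 over both, a lower bound. The same share over all genes is not given. At least 20 reads in each muscle library were found for 100 of the 106 and for 11652 of the 15288 other genes. The recovered liver reads ran from 722 to 3836111 per gene, with a median of 33632, against 123 over all genes.

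**Figure D1:**
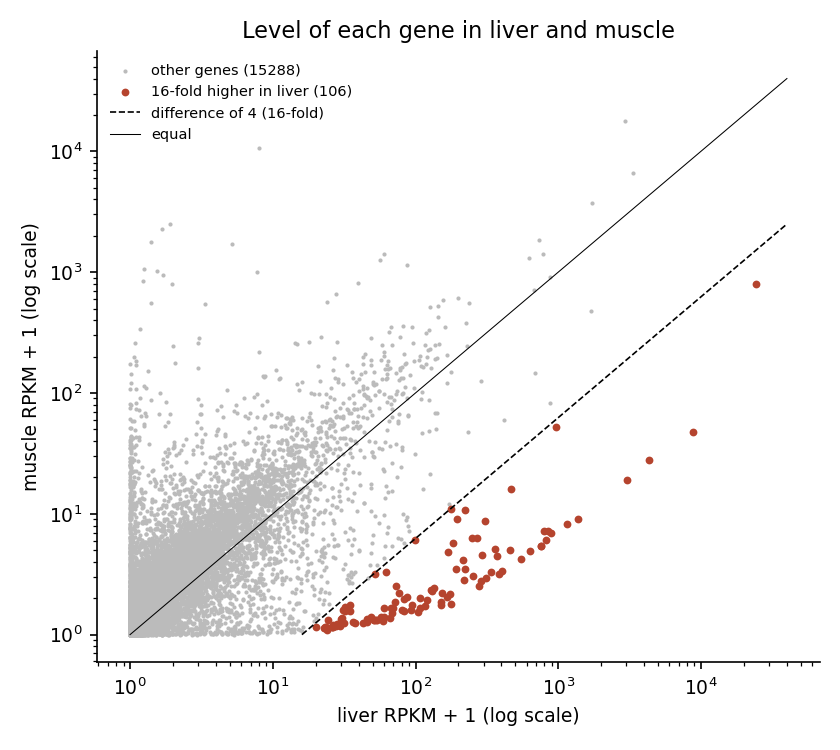
Liver RPKM + 1 (horizontal) and muscle RPKM + 1 (vertical) of every listed gene, both on log scales. The 106 genes 16-fold higher in liver are red, the other 15288 grey. The dashed line marks a difference of 4, and the red points reach from 19.1 to 24307 RPKM in liver.

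The difference of the 106 genes, on the log2(RPKM + 1) scale, ran from 4.02 to 7.52 with a median of 5.38. It was 5 or more for 70 genes, 6 or more for 34 and 7 or more for 11. Just inside the threshold were 3 genes with differences of 4.02, 4.04 and 4.04, at 177.5, 51.0 and 98.5 RPKM in liver. Just outside were 3 genes with differences of 3.97, 3.91 and 3.89. They stood at 45.1, 18.5 and 14.9 RPKM in liver and at 1.94, 0.295 and 0.0721 RPKM in muscle. The edge was therefore gradual, and 91 genes had a difference from 3 to just under 4. With the lower bound of the liver reads and the upper bounds of the muscle reads, by exact Poisson 95% intervals, 103 of the 106 kept a difference of 4 or more. These intervals cover counting error only. Against each muscle library alone, 106 passed with the smaller library and 104 with the larger.

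The opposite direction held 148 genes (0.961%) that were at least 16-fold higher in muscle. That order depended on the scale. The median difference of genes with 1 RPKM or more in both tissues was -0.57, liver minus muscle. With differences centred on that median, 151 genes were 16-fold higher in liver and 96 in muscle. With quantile normalization the counts were 145 in liver and 109 in muscle, and with a pseudocount of 5 they were 52 in liver and 43 in muscle. Centring raised every difference by the same amount, so all of the 106 genes had to pass with it, with a lowest difference of 4.59. With quantile normalization all 106 also passed, with a lowest difference of 4.53.

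Most of these genes ranked high in the liver library by either measure of abundance. The rule itself needs a high liver level, whereas the upper quartile of all listed genes was 1.44 RPKM in liver. Presence among the 500 highest by RPKM, and the lowest rank by RPKM, therefore follow largely from the choice of genes. These genes took 52.4% of the summed liver RPKM and 0.786% of the summed muscle RPKM. By recovered reads, which are not divided by gene length and so weight long genes more, they took 49.96% of the recovered liver gene reads, and 0.583% and 0.474% of those of the smaller and larger muscle libraries. Their 15426820 recovered reads, a lower bound, were at least 33.3% of all liver reads, reads outside genes included. By RPKM they filled 6 of the 10 highest places in liver, 33 of the highest 50 and 50 of the highest 100. The lowest ranked 520 of 15394. By reads they filled 9 of the 10 highest places and 54 of the highest 100, but the lowest ranked 3490. Among the 500 highest liver genes were 105 of them by RPKM and 91 by reads. Recovered reads are lower bounds gene by gene and make up 91.5% of the liver gene reads. Shares of recovered reads and ranks by reads are therefore approximate and could move either way. In muscle 1 of them was among the 50 highest genes and 3 among the 500 highest, and their median rank there was 6974.

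The 5 genes highest by RPKM among the 106 held 35.8% of the liver RPKM sum. The highest of them, evm.TU.scaffold22803.44, had a level of 24307 RPKM in liver (exact Poisson 95% interval 24264 to 24350), and of 723 (716 to 730) and 867 (861 to 873) RPKM in the smaller and larger muscle libraries. Its difference was 4.93, which is below the median of the 106 although its liver level is above all others. It took 20.8% of the liver RPKM sum but 3.996% of the recovered liver gene reads, at a recovered length of 1096 bases. Its recovered reads and length are lower bounds, whereas its RPKM is not affected. It also ranked 23 in muscle, where it made up 69.3% of the RPKM of all 106 genes. The remaining 105 genes held 31.6% of the liver sum, and 0.241% of the summed RPKM in muscle.

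With the largest difference, 7.52, evm.TU.scaffold11323.28 ranked 2 in liver by RPKM and 1 by reads. Its level was 8798 RPKM in liver, against 60.6 and 33.1 RPKM in the smaller and larger muscle libraries. It took 7.53% of the liver RPKM sum and 12.4% of the recovered reads. The third to sixth highest of the 106 stood at 4318, 3037, 1368 and 1157 RPKM in liver. The same 4 genes stood at 33.6, 23.2, 10.2 and 8.76 RPKM in the smaller muscle library and at 20.03, 12.8, 5.85 and 5.81 RPKM in the larger. For each of these 4 and for the gene of largest difference the smaller muscle library was the higher, whereas for the highest gene it was the lower. The 10 highest of the 106 held 39.8% of the liver sum, and the 53 lowest held 2.15%.

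**Figure D2:**
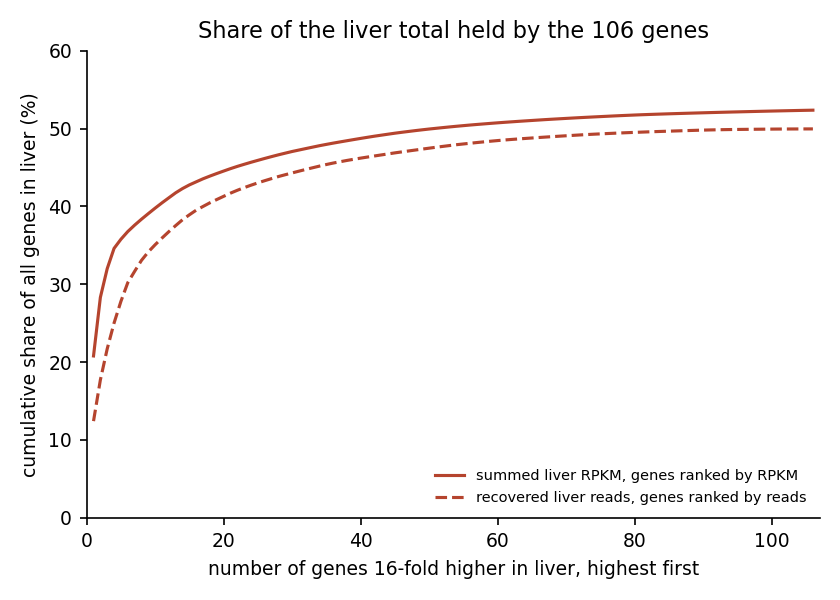
Cumulative share of the liver total of all genes held by the 106 genes, highest first (solid, summed RPKM; dashed, recovered reads). The RPKM line starts at 20.8% and ends at 52.4%, and the line of reads starts at 12.4% and ends at 49.96%.

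Relative to liver, the muscle level of these genes was low. The muscle RPKM was between 0.419% and 5.64% of the liver RPKM, with a median of 0.772% and a middle range of 0.626% to 1.22%. It was under 1% for 69 genes and from 1% to just under 2% for 21, while 16 stood at 2% or more. The rule itself caps this share, at 6.25% for the highest gene and at 1.33% for the lowest, so the upper end is fixed by the choice of genes and differs with the liver level. The lower end is not fixed by it. Only 3 genes were under 0.5%, and they rested on 8 to 50 muscle reads each, from 722 to 3845 liver reads. Among the 93 genes with 100 or more muscle reads the lowest share was 0.532%. Among all 593 listed genes with at least 5000 liver reads the median share was 51.5%. Of the 70 of these genes under 1%, 60 were among the 106. The rule largely sets this overlap, since a share under 1% passes it unless the liver level is low.

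**Figure D3:**
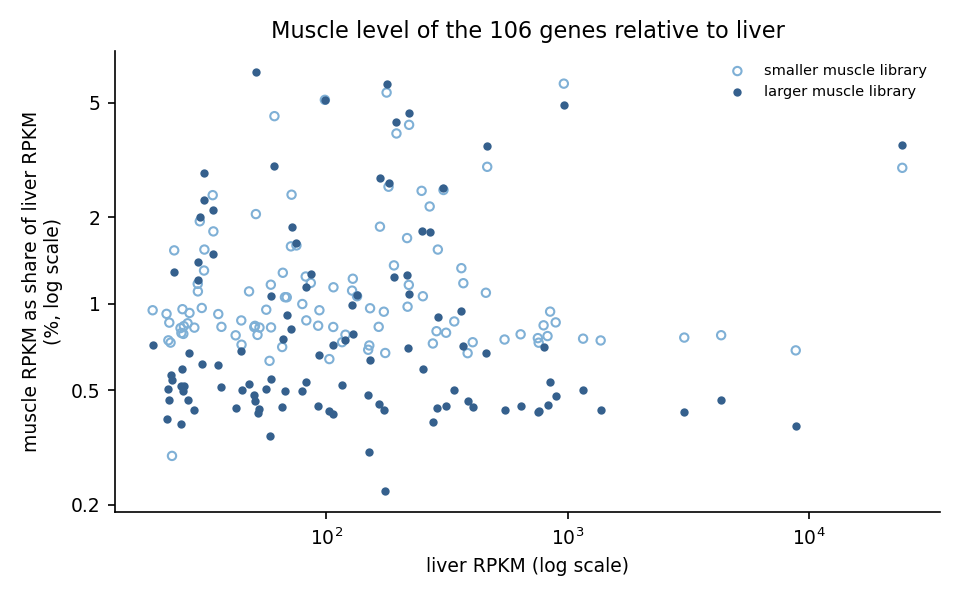
Muscle RPKM as a percentage of liver RPKM (vertical, log scale) against liver RPKM (horizontal, log scale) for the 106 genes, with open points for the smaller and filled points for the larger muscle library. Medians were 0.939% in the smaller and 0.579% in the larger library, and the open point lies above the filled one for 83 of the 100 genes with 20 or more reads in each library.

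The 11 genes with a difference of 7 or more had liver levels from 547 to 8798 RPKM. A difference of 7 or more itself caps the muscle share, so their shares are not read further. All 11 were higher in the smaller than in the larger muscle library, by a log2 ratio of 0.59 to 0.87.

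The ratio between the muscle libraries was not used by the rule, which took their mean. For most of the 106 genes it lay above the middle range of the other genes. Of 100 that had 20 or more reads in each muscle library, 83 were higher in the smaller library, and the median log2 ratio, smaller over larger, was 0.60 with a middle range of 0.19 to 0.84. Of 11652 other genes with as many reads, 36.5% were higher in the smaller library, with a median of -0.09 and a middle range of -0.33 to 0.09. A ratio over 0.5 was found for 59 of the 100 genes and for 2.52% of the others. The other genes were not matched in liver level or muscle share. Genes just outside the threshold were not compared as a group, so the ratio is not shown to be particular to the 106. The libraries belong to 1 muscle sample, nothing says whether they came from separate birds, and no test was made.

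The ratio moved with the muscle share. Of the 47 genes with a share under 0.7%, 43 had enough reads, all 43 were higher in the smaller library, and their median ratio was 0.81. The next 22 genes, from 0.7% to just under 1%, had a median of 0.67, with all 21 that had enough reads higher in the smaller library. From 1% to just under 2% the median was 0.13, and 13 of 20 were higher in the smaller library. At 2% or more it was -0.07, close to the median of other genes, and 6 of 16 were higher in the smaller library. The last group includes the highest liver gene, and 1 gene far below the rest at -1.65, which stood at 51.0 RPKM in liver, and at 1.05 and 3.28 RPKM in the smaller and larger muscle libraries. Across the 100 genes the Spearman correlation of share and ratio was -0.70, a description only, since the genes share their libraries and both measures use the same muscle reads. The source of the muscle reads of these genes was not tested.

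**Figure D4:**
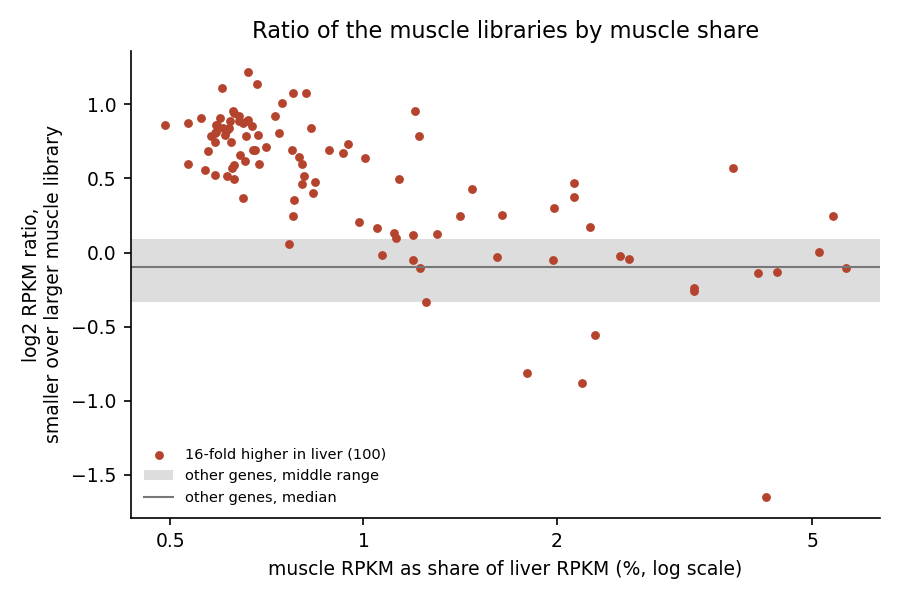
Log2 ratio of RPKM, smaller over larger muscle library (vertical), against muscle RPKM as a percentage of liver RPKM (horizontal, log scale) for the 100 genes with 20 or more reads in each library. The grey line and band give the median (-0.09) and middle range (-0.33 to 0.09) of 11652 other genes. Genes under 0.7% lie between 0.37 and 1.22.

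The 106 genes lay on 87 scaffolds. On 72 of them there was 1 such gene, on 12 there were 2, on 2 there were 3 and on 1 there were 4, so that 34 genes (32.1%) shared a scaffold with another. Scaffolds with 1 of the 106 held up to 157 listed genes. The share of other genes on these scaffolds is not given, so the 32.1% cannot be read as grouping. Gene IDs carry a number within the scaffold, and 23 of the 106 (21.7%) had the number next to that of another of them. Of the 15288 other genes, 0.994% stood next to 1 of the 106. Among the 148 genes at least 16-fold higher in muscle, 46 (31.1%) shared a scaffold with another such gene and 16 (10.8%) stood next to one. These shares were not tested against each other. Widening the distance to 3 gene numbers added none of the 106, while the share of other genes near one of them became 2.75%. The 23 genes formed 10 neighbouring pairs and 1 run of 3. Within these groups the liver level differed by 1.19-fold to 227-fold, with a median of 2.27-fold. In 6 of the 11 the muscle shares lay within 0.1 percentage points of each other. Every share in these 6 groups was under 0.7%, as it was for 47 of all 106 genes. Pairs of the 106 that are not neighbours were not compared.

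Scaffold 17991 held 4 of the 106 genes, in 2 neighbouring pairs with 1 gene between them. Gene 2 stood at 403.6 RPKM in liver, and at 2.97 and 1.77 RPKM in the smaller and larger muscle libraries. Gene 3 stood at 42.1 RPKM in liver, and at 0.327 and 0.182 RPKM in the muscle libraries in the same order. Gene 5 was the highest, at 757 RPKM in liver, and at 5.55 and 3.21 RPKM in muscle. In each of these 3 genes the smaller muscle library was the higher, and liver was far above both. Gene 6 stood at 28.4 RPKM in liver, and at 0.234 and 0.121 RPKM in muscle. The gene between them, gene 4, missed the threshold with a difference of 3.67. It stood at 12.4 RPKM in liver, and at 0.0626 and 0.0318 RPKM in muscle, from 13 and 12 reads. All 5 had muscle shares from 0.382% to 0.627% and log2 ratios of the muscle libraries from 0.74 to 0.98. On either side the pattern stopped. Gene 1 stood at 0.00198 RPKM in liver and 0.0228 in muscle, and gene 7 at 0.0756 RPKM in liver and 0.0572 in muscle.

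Scaffold 22803 held the run of 3, genes 44 to 46, which starts with the highest liver gene. Gene 45 stood at 167 RPKM in liver, and at 3.09 and 4.56 RPKM in the smaller and larger muscle libraries. Its recovered length was 170 bases and its recovered liver reads were 1312, both lower bounds. Gene 46 stood at 106.9 RPKM in liver, and at 1.22 and 0.767 RPKM in the muscle libraries in the same order. The run was not uniform: muscle shares were 3.27%, 2.30% and 0.930% for genes 44, 45 and 46, and the smaller muscle library was the lower for genes 44 and 45 and the higher for gene 46. Gene 43 before the run stood at 0.939 RPKM in liver and 0.839 in muscle. Gene 47 after it stood at 12.6 RPKM in liver and 3.79 in muscle, a difference of 1.503.

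**Figure D5:**
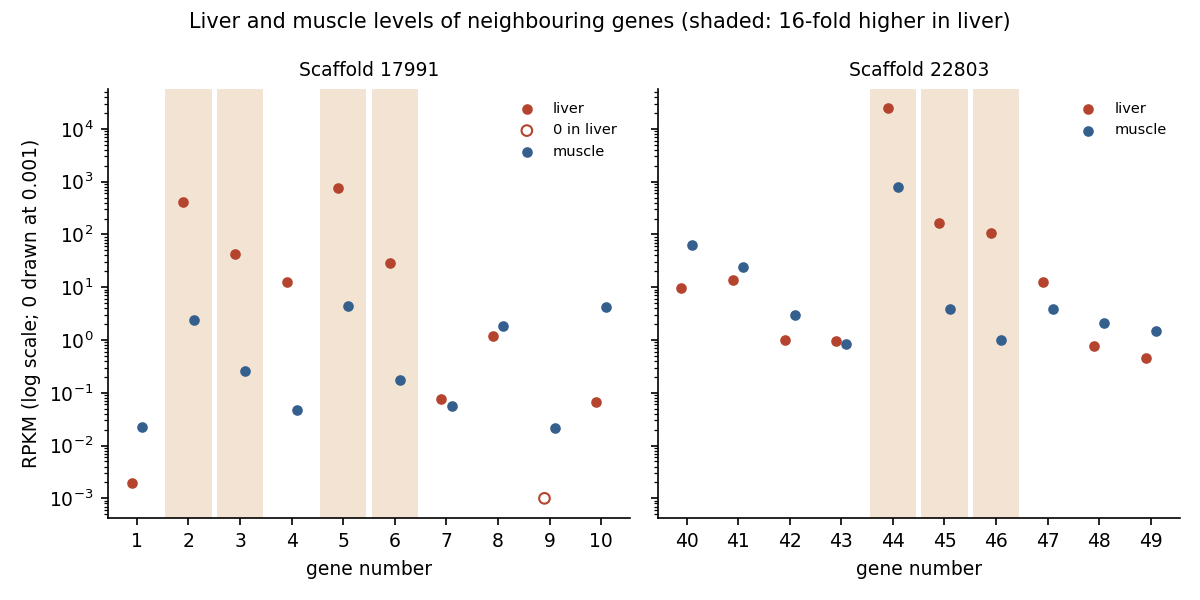
RPKM (log scale, with a value of 0 drawn as an open circle at the foot of the plot) in liver (red) and muscle (blue) of genes 1 to 10 on scaffold 17991 and genes 40 to 49 on scaffold 22803, by gene number. Shading marks genes 16-fold higher in liver: genes 2, 3, 5 and 6 on scaffold 17991 and genes 44 to 46 on scaffold 22803.

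The other scaffold with 3 of the 106 genes, scaffold 22643, showed no such run. Its genes 3, 38 and 58 stood far apart, at 31.1, 177.5 and 190.4 RPKM in liver. In the smaller muscle library they stood at 0.406, 9.65 and 2.59 RPKM, and in the larger at 0.714, 10.4 and 2.37 RPKM, with shares of 1.80%, 5.64% and 1.30%. Neighbours of the 106 genes that were not among them numbered 152. Their median was 0.560 RPKM in liver and 0.614 RPKM in muscle, with a median difference of -0.04, against -0.22 over the 15288 genes outside the 106. A difference of 2 or more was found for 11 of the 152 (7.24%) and for 246 of the 15288 (1.61%). The rule kept genes with a difference of 4 or more out of both groups, and the shares were not tested against each other.

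Gene length bears on these RPKM values. The recovered length, a lower bound, had a median of 6760 bases in the 106 genes and 8488 bases over all genes. Of the 106, 8 (7.55%) were under 500 bases, against 9.25% of all genes with a recovered length. These 8 reached 66.0 to 963 RPKM in liver with 722 to 8293 recovered reads, which like the lengths are lower bounds, and 4 of them were alone on their scaffold. One of these 4, at 186 bases, ranked 11 in liver by RPKM and 342 by reads. Its muscle share of 5.38% was the second highest of the 106. Levels of different genes are therefore comparable only on the authors' own length scale, and ranks by reads are given beside ranks by RPKM for this reason.

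For 8 of the 106 the gene was the only one listed on its scaffold, so transcripts assembled there could be set beside it. All 8 had a liver transcript on their scaffold, 6 had one in muscle assembly 2 and 7 in muscle assembly 3. Nothing in the labels or files ties the smaller or larger muscle library to either muscle assembly. With 8 scaffolds the Wilson 95% intervals were wide, at 67.6% to 100%, 40.9% to 92.9% and 52.9% to 97.8%. They treat scaffolds as free draws, although the rule chose them, and give no error between samples. Among 1609 other such scaffolds the shares were 50.1%, 73.1% and 65.2%. The rule needs a high liver level, so the liver share of the 8 and its distance from other scaffolds follow largely from the choice. Table and assemblies come from RNA of the same 2 samples and are not independent. Of the 8 scaffolds, 5 had only transcripts of 1 exon, and all of the others, 3 in number, had spliced transcripts in liver and in both muscle assemblies.

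The spliced transcripts on these 3 scaffolds differed in how far muscle matched liver. On scaffold 15551 the liver assembly held a transcript of 34 exons and 4490 spliced bases on the minus strand, from position 269 to 14050. Muscle assemblies 2 and 3 also held 34 exons there, with 4509 and 4358 spliced bases. That gene stood at 195 RPKM in liver, and at 7.64 and 8.39 RPKM in the smaller and larger muscle libraries, and all 34 liver introns were found in muscle assembly 2 and 33 in muscle assembly 3. On scaffold 22657 the gene stood at 31.2 RPKM in liver, and at 0.482 and 0.887 RPKM in the muscle libraries in the same order. Each of the 3 assemblies held a transcript of 25 exons on that scaffold, and all 24 liver introns were found in both muscle assemblies. The longest spliced form there had 3241 bases in liver, 6217 in muscle assembly 2 and 4050 in muscle assembly 3.

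On scaffold 22331, with the lowest liver level of the 8, the picture differed. The gene stood at 21.8 RPKM in liver, and at 0.201 and 0.0863 RPKM in the smaller and larger muscle libraries, from 55 and 43 reads. Liver held a transcript of 16 exons and 3263 spliced bases on the plus strand, from position 1571 to 9600. In muscle the transcripts covered parts of it, with 8 exons and 891 bases in assembly 2 and 13 exons and 1795 bases in assembly 3. All 7 and all 12 of their introns were among the 15 of the liver transcript. Scaffold 194869 was the only one of the 8 with no transcript in either muscle assembly. Its gene stood at 35.6 RPKM in liver, and at 0.328 and 0.219 RPKM in the smaller and larger muscle libraries, from 14 and 17 reads. On all 3 scaffolds with spliced transcripts the recovered gene length (13931, 19504 and 5761 bases on scaffolds 15551, 22657 and 22331) was above the spliced length of the longest liver transcript. The RPKM of these 3 genes was thus divided by more bases than that transcript holds. Whether introns were counted in gene length was not tested. On the other 5 scaffolds the recovered length was below the longest liver transcript. Recovered lengths are lower bounds, so whether these 5 genes are shorter than their transcripts is not known. There the recovered lengths were 186, 258, 89, 351 and 897 bases on scaffolds 180209, 175494, 182951, 185488 and 194869. The liver transcripts had 361, 302, 459, 541 and 2314 bases on these scaffolds in the same order.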

How the data were processed

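RNA of 1 liver and 1 muscle sample was made into libraries with a TruSeq kit, per the labels' protocols. Alignment used TopHat, per the submitters' processing notes, and transcripts were assembled by Cufflinks, per the source column of the files. The sources used here give no genome build, annotation or counting tool. For each gene the authors deposited an RPKM in liver and another in muscle, and other values, the 1-based transcript positions, with a Cufflinks score that the authors' files give per transcript and that was not used. The 3 rows that are not genes were left out of gene values.

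Reads and gene lengths were recovered from the RPKM values as the smallest whole numbers that give both values within a relative 6e-15, which worked for 15384 of 15394 genes and for all 106 described here. Any common factor of a gene's length and reads cancels, so both are lower bounds, while RPKM per library is not affected. The recovered reads were 91.5% of the liver gene reads. The recovery was tested on simulated data.

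A pseudocount of 1 RPKM was used, and it understates differences of genes with low values. With 1 sample per tissue, no p-value was computed. Neighbours are genes with consecutive numbers on a scaffold. By the rule for named genes, with no symbols paired with IDs, the genes with the highest liver RPKM and the largest difference are named, and groups of 3 or more on a scaffold are given by position. Scaffolds of genes alone on theirs were named after their values were seen. Genes, cuts and lists were chosen with earlier results of these data known. Alternatives were other pseudocounts, scales, libraries and thresholds. Counting error alone is covered by the exact Poisson 95% intervals and by the floor of 3 reads. The Wilson 95% intervals cover only the drawing of scaffolds. Python 3.11.15, numpy 2.4.6, pandas 2.3.3, scipy 1.17.1 and matplotlib 3.10.9 were used.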

Additional observations from a re-analysis of the deposited data

Results flagged for a closer look

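Some reads fell outside the gene rows and entered no comparison. They are given here because each class exceeds what a count of 0 allows (3 reads). In no feature were 24.3% of reads in liver, against 30.6% in muscle. Not uniquely aligned were 2.80% in liver, against 4.13% in muscle. Ambiguous between genes were 0.0635% in liver, against 0.217% in muscle.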

How the results depend on the processing

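The count of 106 genes became 242 with a pseudocount of 0.1, 52 with a pseudocount of 5, 259 on the TPM scale and 208 with RPM in place of RPKM. All 106 genes passed with the lower pseudocount and on the TPM scale. This was fixed in advance, since a pseudocount that weighs less raises the difference of a gene higher in liver, and TPM values are larger than RPKM here. With RPM 105 passed, and 52 passed with the higher pseudocount, which gives low levels less weight by construction. The genes 16-fold higher in muscle numbered 445, 43, 355 and 336 in these settings, in the same order. With 5 RPKM or more in liver, with either muscle library alone, with centring and with quantile normalization the count stayed within 1.5 times of 106. The limit of 5 RPKM could remove none of the 106, since the rule already needs a higher liver level. The share of the liver total, 52.4% by RPKM, was 49.96% by recovered reads and 31.6% without the highest gene. The median muscle share of the liver level, 0.772%, was 0.939% in the smaller and 0.579% in the larger muscle library, and 0.775% over the 93 genes with 5000 or more liver reads. At a difference of 3 or more, 38 of 197 genes stood next to another such gene, against 23 of 106 at 4 and 16 of 70 at 5. Restricted to transcripts of 2 or more exons, 3 of the 8 scaffolds with 1 listed gene had a transcript in liver, 3 in muscle assembly 2 and 3 in muscle assembly 3. No paired analysis was possible because each tissue has 1 sample. The depth limits the 13 genes with under 100 muscle reads, whose shares and library ratios rest on few reads.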
